A study of Homo sapiens with 12 samples.

Results

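The 46 genes described here surround ASAP2 on the short arm of human chromosome 2, from ACP1 near the end of the arm to NCOA1 just inside the first 25 Mb. ASAP2 encodes a GTPase-activating protein for Arf proteins and was the gene knocked out. The genes were taken by symbol from a list chosen by their knockout to wild-type ratios in both cell lines, which were low along this stretch, so the knockout changes below are given as a description, without a test. All 46 symbols occurred among the 22650 in the files, and 43 of them were among the 13340 that passed the filter on low values (averaging 1 FPKM or more across either line's 6 libraries). FPKM, the deposited unit, counts fragments relative to transcript length and to the library's mapped total.

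RNA-seq covered Panc1 and MiaPaCa2, both established from human pancreatic ductal adenocarcinoma, each as wild-type cells and as ASAP2 knockout cells. The 4 groups had 3 libraries each, 12 in all, and the labels give no treatment. The sources used here give neither the way the knockout was made nor the number of clones, nor whether a group's 3 libraries came from separate cultures, so errors measure only the spread between these libraries, which may be technical.

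Neighbours on a chromosome share its copies and its chromatin domains, but usually not a function, and the genes here are of many kinds. They include RRM2, the small subunit of ribonucleotide reductase, which makes the DNA precursors. They also include ODC1, the first enzyme of polyamine synthesis, SMC6 and GEN1 of DNA repair, the sheddase ADAM17 and the GTPase RHOB. Both lines carry abnormal karyotypes, as is common in pancreatic cancer. DNA copy number was not analysed here.

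Library totals were of like size but differed between some groups. Between 17958 and 19105 genes were listed per library, with 11842 to 12500 at 1 FPKM or more, and FPKM summed to 360765 to 392610. The sums were 360765 to 365204 in Panc1 wild-type and 380260 to 384440 in Panc1 knockout libraries, which do not overlap. In MiaPaCa2 they were 384118 to 392610 in wild-type and 379820 to 392106 in knockout libraries. Genes listed numbered 18848 to 19105 in Panc1 and 17958 to 18212 in MiaPaCa2 libraries. Read depth is unknown, since the files hold no counts. Keratins KRT8, KRT18 and KRT19 were read in every library, at 31.8 FPKM or more, while EPCAM and CDH1, which define well-differentiated epithelium, were at or near 0 in MiaPaCa2 (EPCAM at 0 in each library, CDH1 at 0.02 FPKM or less). CDH1 was at 0.419 FPKM or less in Panc1. Some of these markers differed with the knockout, in Panc1 in both directions. The median KRT19 level was 541 FPKM in wild-type against 258 FPKM in knockout Panc1 libraries, and 105 against 34.04 FPKM in MiaPaCa2. KRT8, KRT18 and EPCAM were higher without overlap in Panc1 knockout libraries. Their Panc1 medians were 369.1 against 519.7 FPKM, 303.4 against 411.8 FPKM and 2.59 against 3.41 FPKM. In MiaPaCa2 KRT8 and KRT18 were lower without overlap in knockout libraries. Of 3 mesenchymal markers, VIM had medians of 2244 and 2715 FPKM in Panc1 and of 2434 and 2019 FPKM in MiaPaCa2, CDH2 of 15.8 and 32.6 FPKM in Panc1 and 0 in MiaPaCa2, and FN1 was at most 0.222 FPKM. Their part in the results below was not tested. The summed level of 4 acinar markers was at most 0.099 FPKM and that of 3 endocrine markers at most 0.024 FPKM. PTPRC reached at most 0.009 FPKM and CD3E was at 0, while CD68, which tumour lines also express, read 18.1 to 177 FPKM.

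ASAP2 itself read 38.6, 37.5 and 34.6 FPKM in Panc1 wild-type libraries and 14.2, 14.5 and 12.7 FPKM in knockout libraries, 37.4% of wild type. In MiaPaCa2 it read 13.2, 13.6 and 13.8 FPKM in wild-type cells, against 12.01, 13.8 and 11.3 FPKM in knockout cells, 91.3% of wild type. The groups did not overlap in Panc1 and overlapped in MiaPaCa2, so the transcript level leaves the MiaPaCa2 labels unchecked. In Panc1 ASAP2 lay near the low end of the range of its neighbours given below (15.7 to 110.3% of wild type). TRIB2 (15.7%), RNF144A (22.4%) and GEN1 (30.1%) stood lower by percent of wild type and the other tested neighbours higher. On the relative log2 scale defined below, only TRIB2 (-2.03) stood lower than ASAP2 (-1.25), with RNF144A at -0.90 and GEN1 at -1.05. The level of ASAP2 was thus low among them but not outside their range, so by itself it does not single out the targeted gene.

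In Panc1 the tested neighbours read lower in the knockout libraries almost without exception. For 42 of 43 the 3 knockout values lay below the 3 wild-type values, which was so for 45.3% of all genes tested, and none lay above without overlap, against 24.7% of all genes. The median knockout level was 56.7% of wild type, a ratio of 0.567, where the median ratio over all genes was 0.912. Percentages of wild type given here are not corrected for the all-gene ratio of the line. On the scale of log2(FPKM + 1) the median change was -0.71, or -0.61 once the all-gene median of -0.10 was taken off. Changes given below as relative are on this scale, which understates the change of low genes. The interquartile range of the neighbours ran from -0.87 to -0.42 and that of all genes from -0.23 to 0.23. Below the all-gene median lay 42 of 43, against 50.0% of all genes. In 30 of the 43 the knockout level was 45 to 75% of wild type (22.5% of all genes), in 10 it was below 45% (2.86% of all genes) and in 3 above 75%. Since bulk RNA was read, less RNA in every cell and a loss in part of the cells cannot be told apart.

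In MiaPaCa2 the same genes read lower by a smaller amount. For 34 of 43 the knockout libraries lay wholly below wild type, against 20.5% of all genes, and 9 overlapped. The median knockout level was 79.7% of wild type, where the median ratio over all genes was 1.013. The median relative change was -0.32, with an interquartile range from -0.46 to -0.18, against -0.13 to 0.13 for all genes. Below the all-gene median lay 40 of 43, against 50.0% of all genes. The level was 45 to 75% of wild type in 15 genes (5.95% of all genes), above 75% in 28 and below 45% in 0 (2.45% of all genes). Both lines together had 33 of 43 genes lower without overlap, against 9.09% of all genes. None of the 43 lay wholly above wild type in either line.

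The listed genes were lower in each knockout library, by like amounts in Panc1, while knockout replicate 2 stood lower than the other two in MiaPaCa2. Against the wild-type mean, the median relative change of the 43 genes was -0.62, -0.62 and -0.64 in the 3 Panc1 knockout libraries and -0.32, -0.38 and -0.31 in those of MiaPaCa2. Each wild-type library, set against the mean of the other two, stood between -0.014 and 0.022 in Panc1 and between 0.0009 and 0.0055 in MiaPaCa2. Summed over the 43 genes, Panc1 wild-type libraries held 1262, 1262 and 1263 FPKM and knockout libraries 728, 712 and 722 FPKM. The MiaPaCa2 sums were 1487, 1483 and 1516 FPKM in wild-type cells against 1146, 1033 and 1171 FPKM in knockout libraries.

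**Figure D1:**
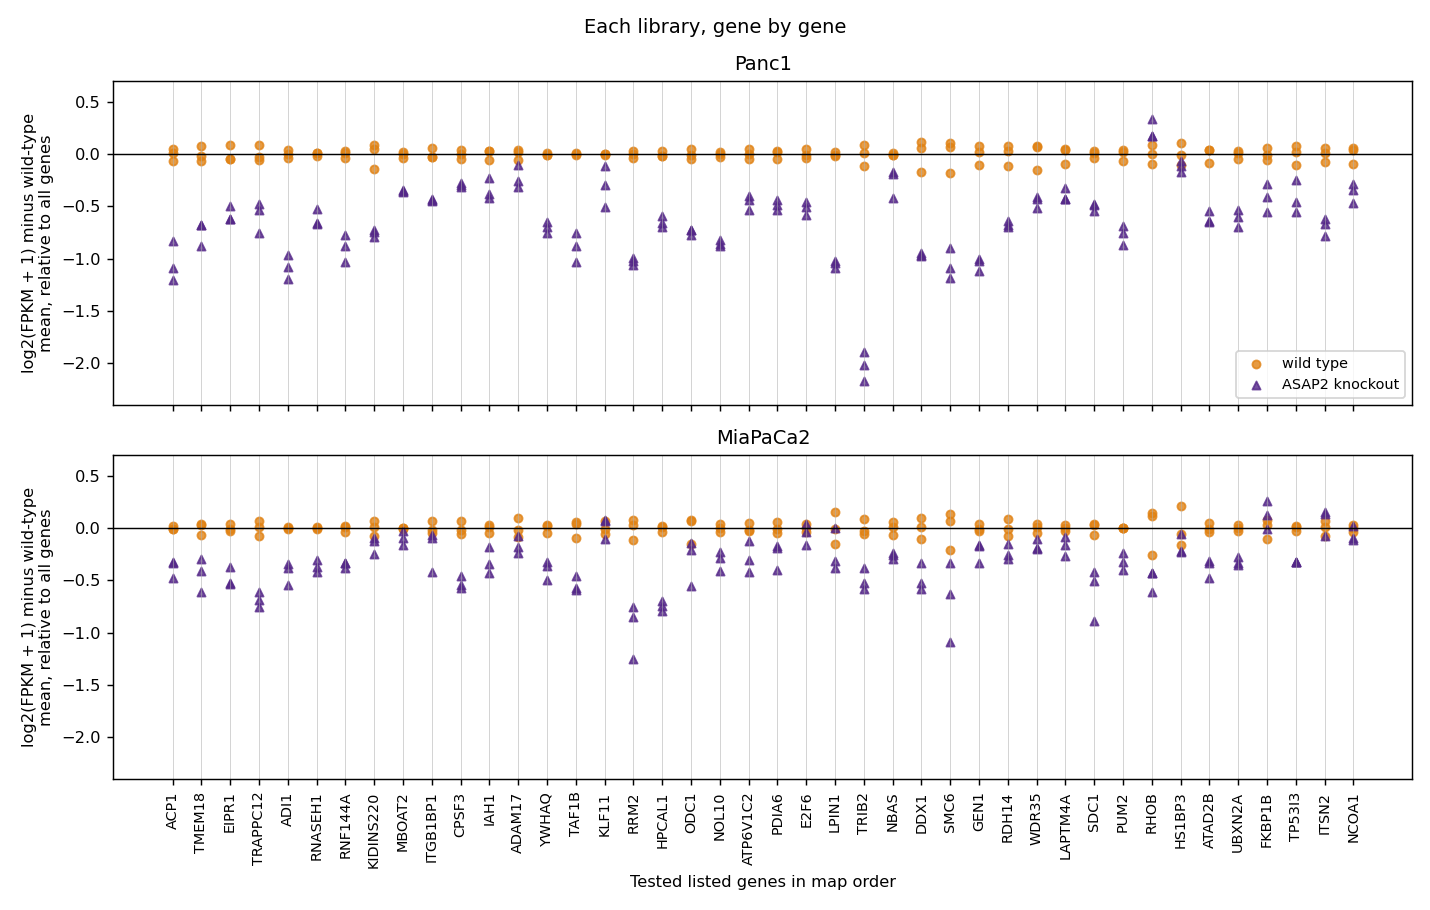
42 of the 43 tested genes in map order (x axis) with its value in each library, as log2(FPKM + 1) minus the wild-type mean of the line, relative to the all-gene median of that library (y axis); circles are wild-type and triangles knockout libraries. By FPKM, the knockout values lie below the wild-type values for 41 of these genes in Panc1, with TRIB2 lowest and RHOB the exception. On the scale drawn HS1BP3 also overlaps in Panc1, with knockout replicate 2 at -0.07 and wild-type replicate 2 at -0.10. In MiaPaCa2 the knockout values lie below by FPKM for 33 genes, and the triangles lie closer to 0.

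Genes of DNA replication and repair stood lowest in Panc1 as a group. All 5 were below wild type without overlap in both lines, against 45.3% of all genes in Panc1 and 20.5% in MiaPaCa2. Their median relative change was -1.03 in Panc1 and -0.38 in MiaPaCa2. Every group here and below holds genes listed for low ratios, so such counts are no result about a role. RRM2 read 89.7, 91.1 and 93.3 FPKM in Panc1 wild-type and 41.9, 39.8 and 41.97 FPKM in knockout libraries. In MiaPaCa2 it read 115, 126 and 131 FPKM in wild-type cells against 69.0, 51.2 and 73.6 FPKM in knockout libraries, 52.1% of wild type and the lowest relative change of the 43 genes there (-0.96). In Panc1 RRM2 stood at 45.1% of wild type, and the groups were apart in both lines.

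SMC6, a core ATPase of the SMC5/6 repair complex, read 10.3, 10.5 and 8.39 FPKM in Panc1 wild-type and 3.74, 4.27 and 3.35 FPKM in knockout libraries. In MiaPaCa2 it read 9.40, 7.12 and 8.91 against 5.16, 6.49 and 3.47 FPKM, without overlap but with a wide spread among the knockout libraries. GEN1, a nuclease that cuts Holliday junctions, read 3.97, 3.72 and 3.33 FPKM in Panc1 wild-type and 1.21, 1.11 and 0.996 FPKM in knockout libraries, 30.1% of wild type. In MiaPaCa2 it stood at 83.5%. ATAD2B, a bromodomain ATPase of chromatin, was at 40.8% in Panc1 and 69.6% in MiaPaCa2, and RNASEH1 at 56.7% and 76.9%. RNASEH1, which removes RNA from RNA-DNA hybrids, read 9.65, 9.61 and 9.37 FPKM in Panc1 wild-type and 5.93, 5.15 and 5.16 FPKM in knockout libraries, which do not overlap.

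In a group of 8 enzymes, mostly of polyamine, methionine salvage and lipid metabolism, 8 were lower without overlap in Panc1 (45.3% of all genes) and 6 in MiaPaCa2 (20.5%). ACP1 and TP53I3 were placed in this group though their functions, given below, are others. ADI1, a dioxygenase of methionine salvage, read 35.02, 33.8 and 35.7 FPKM in Panc1 wild-type and 13.8, 14.6 and 16.1 FPKM in knockout libraries. In MiaPaCa2 it read 143, 142 and 141 against 109.6, 97.1 and 113 FPKM, so the groups were apart in both lines. LPIN1, a phosphatidate phosphatase, read 12.3, 11.99 and 11.9 FPKM in Panc1 wild-type and 5.10, 4.65 and 4.88 FPKM in knockout libraries. In MiaPaCa2 its values of 21.1, 18.6 and 16.8 against 14.98, 18.8 and 14.3 FPKM overlapped.

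ODC1 read 160.2, 164 and 171 FPKM in Panc1 wild-type and 93.8, 88.3 and 91.9 FPKM in knockout libraries, 55.4% of wild type. Its MiaPaCa2 values of 108, 126 and 127 against 104, 81.4 and 109.8 FPKM overlapped. Of the rest, ACP1, a low-molecular-weight tyrosine phosphatase, stood at 43.5% of wild type in Panc1 and 76.9% in MiaPaCa2. The retinol dehydrogenase RDH14 stood at 49.2% and 83.7%, but it shares its body with the annotated readthrough NT5C1B-RDH14 and its level is uncertain. TP53I3, a quinone reductase induced by p53, stood at 67.9% and 79.6%.

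Signalling genes held both extremes. TRIB2, a pseudokinase that brings targets to a ubiquitin ligase, was the lowest of all in Panc1: it read 10.9, 11.5 and 9.84 FPKM in wild-type cells against 1.46, 1.67 and 1.92 FPKM in knockout libraries, 15.7% of wild type and a relative change of -2.03. In MiaPaCa2 it read 24.98, 22.7 and 22.3 against 15.4, 17.7 and 15.99 FPKM, 70.2% of wild type. RHOB, an endosomal GTPase, was the one gene of the 43 above the all-gene median in Panc1, with 9.43, 8.11 and 8.70 FPKM in wild-type cells against 9.41, 9.15 and 10.4 FPKM in knockout libraries, which overlap. In MiaPaCa2 RHOB was lower without overlap, at 8.68, 11.4 and 11.7 against 7.63, 6.54 and 7.61 FPKM.

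HPCAL1, a neuronal calcium sensor, read at like FPKM in both lines. It read 139, 139 and 144 FPKM in Panc1 wild-type and 83.8, 85.8 and 79.9 FPKM in knockout libraries, and 142, 139.6 and 136 against 80.8, 85.7 and 83.5 FPKM in MiaPaCa2. These were 59.2% and 59.9% of wild type, with relative changes of -0.65 in Panc1 and -0.74 in MiaPaCa2. The 14-3-3 protein YWHAQ, the most abundant of the 43 at 323 ± 4.08 FPKM (SD, n = 3) in Panc1 wild-type libraries, stood at 57.2% in Panc1 and 76.6% in MiaPaCa2. FKBP1B, an immunophilin that binds ryanodine receptors, read 8.98, 9.71 and 9.19 FPKM in Panc1 wild-type and 6.31, 5.47 and 6.85 FPKM in knockout libraries. It was close to absent from MiaPaCa2, at 0.496, 0.435 and 0.316 against 0.421, 0.689 and 0.560 FPKM, which overlap.

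**Figure D2:**
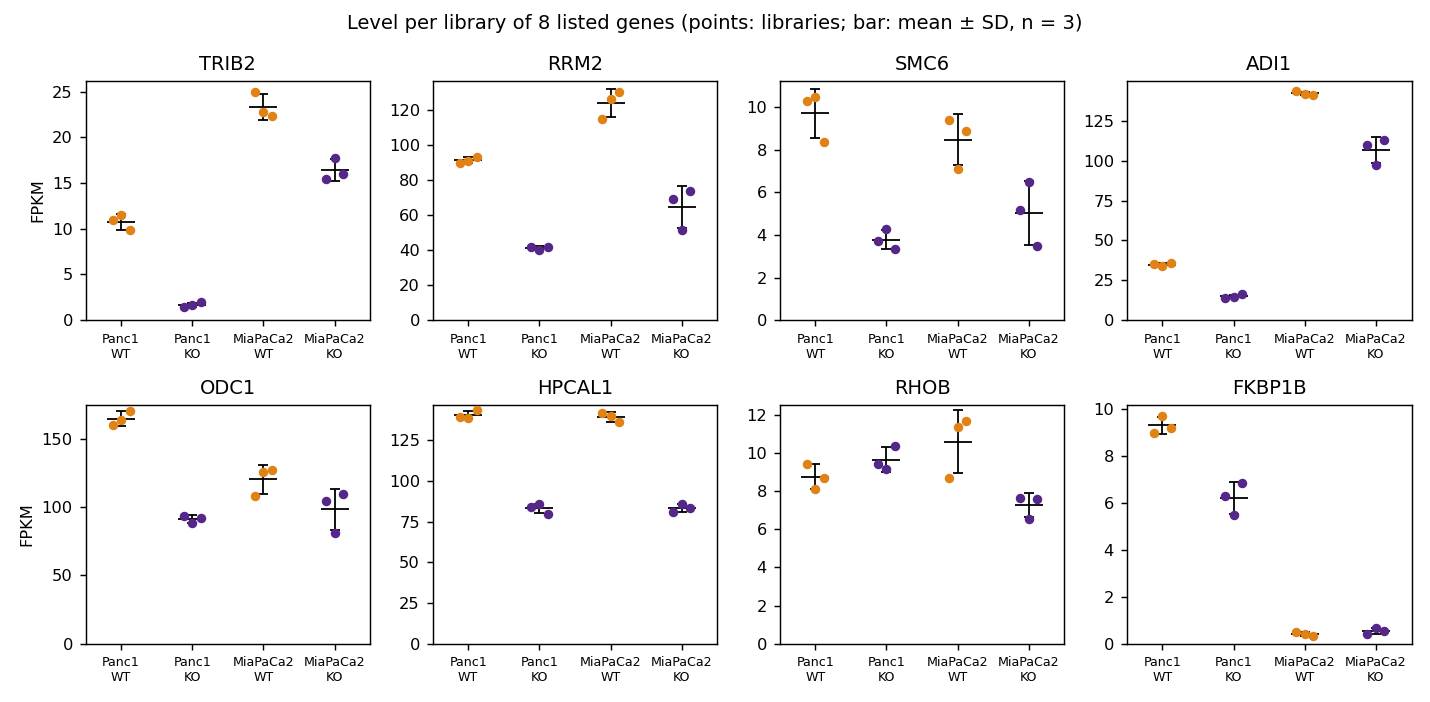
FPKM of 8 genes in each library (points) with the mean ± SD of 3 libraries (bars) in the 4 groups; each y axis starts at 0. TRIB2 stands at 15.7% of wild type in Panc1 and at 70.2% in MiaPaCa2, HPCAL1 reads alike in both lines, RHOB is not lower in Panc1 and FKBP1B is near 0 in MiaPaCa2.

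Of the 4 cell surface and adhesion genes, 4 were lower without overlap in Panc1 (45.3% of all genes) and 3 in MiaPaCa2 (20.5%). SDC1, a heparan sulfate proteoglycan of epithelium, read 41.3, 42.4 and 43.02 FPKM in Panc1 wild-type and 28.3, 26.4 and 27.8 FPKM in knockout libraries. In MiaPaCa2 it read 34.7, 36.9 and 37.2 against 25.4, 19.1 and 27.1 FPKM, so it stood at 65.0% of wild type in Panc1 and 65.9% in MiaPaCa2. Its relative changes were -0.50 and -0.61. ADAM17, which sheds growth factors and TNF, stood nearer to wild type. It read 5.97, 6.03 and 5.56 FPKM in Panc1 wild-type and 5.04, 4.30 and 4.11 FPKM in knockout libraries, and its MiaPaCa2 values of 12.1, 10.5 and 11.1 against 9.92, 10.6 and 9.45 FPKM overlapped.

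KIDINS220, a scaffold of neurotrophin receptors that lies 0.37 Mb before ASAP2, read 8.66, 8.34 and 7.14 FPKM in Panc1 wild-type and 4.10, 4.02 and 3.83 FPKM in knockout libraries, and stood at 89.6% of wild type in MiaPaCa2. ITGB1BP1, an inhibitor of beta-1 integrin, overlaps ASAP2 by 2209 bases on the other strand at its 3′ end. It read 21.5, 20.1 and 20.1 FPKM in Panc1 wild-type and 13.98, 13.7 and 13.9 FPKM in knockout libraries. The sources used here do not state whether counting was stranded, so reads of that overlap cannot be told apart.

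All 8 genes of membrane traffic, lysosome and cilium were lower without overlap in Panc1 (median relative change -0.45) and 6 of 8 in MiaPaCa2 (-0.22). Of all genes 45.3% and 20.5% were. TRAPPC12, of the TRAPP tethering complexes, read 11.4, 11.1 and 12.4 FPKM in Panc1 wild-type and 6.07, 7.05 and 7.39 FPKM in knockout libraries, and 16.5, 18.2 and 17.5 against 10.5, 9.90 and 11.1 FPKM in MiaPaCa2. It stood at 58.9% and 60.3% of wild type, with relative changes of -0.59 and -0.69. HS1BP3, a lipid-binding regulator of autophagy, stood nearest to wild type among these in Panc1, with 5.95, 5.46 and 6.45 FPKM in wild-type cells against 5.09, 5.12 and 4.71 FPKM in knockout libraries, 83.5% of wild type. ATP6V1C2, a subunit of the proton pump, NBAS of Golgi-to-ER transport, WDR35 of the cilium and LAPTM4A of the lysosome stood at 58.3 to 73.5% of wild type in Panc1 and at 81.6 to 89.4% in MiaPaCa2. ITSN2, an endocytic scaffold, read 5.35, 5.12 and 4.75 FPKM in Panc1 wild-type and 2.61, 2.64 and 2.27 FPKM in knockout libraries, but 5.35, 5.03 and 4.73 against 5.71, 5.73 and 4.79 FPKM in MiaPaCa2, which overlap. Whether its change differs between the lines was not tested, because both changes belong to the choice of the list.

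The 7 transcription factors and cofactors included the 3 genes that did not pass the filter. GRHL1, an epithelial grainyhead factor, read 0.646 to 0.719 FPKM in Panc1 wild-type, 0.243 to 0.341 in Panc1 knockout and 0.572 to 0.924 in MiaPaCa2 libraries. GREB1, an estrogen-responsive gene, was at most 0.342 FPKM in any library, and MYCN was listed in a single one, a Panc1 knockout library, at 0.017 FPKM. All 4 tested genes were lower without overlap in Panc1 (45.3% of all genes), but only TAF1B was in MiaPaCa2 (20.5% of all genes).

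TAF1B, of the RNA polymerase I factor SL1, read 7.82, 7.74 and 7.65 FPKM in Panc1 wild-type and 3.89, 3.37 and 2.98 FPKM in knockout libraries, and 3.55, 4.01 and 3.98 against 2.55, 2.25 and 2.23 FPKM in MiaPaCa2. KLF11, a TGF-beta-inducible repressor, read 4.36, 4.38 and 4.37 FPKM in Panc1 wild-type and 3.71, 3.03 and 2.52 FPKM in knockout libraries. In MiaPaCa2 KLF11 read 3.29, 3.01 and 2.90 against 2.83, 3.29 and 3.30 FPKM, with overlap. The repressor E2F6 stood at 55.3% of wild type in Panc1 and 96.4% in MiaPaCa2, and the steroid receptor coactivator NCOA1 at 65.2% and 95.7%.

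All 7 genes of RNA processing, ribosome assembly and protein folding or turnover were lower without overlap in both lines (median relative changes of -0.77 and -0.32). Of all genes 45.3% were in Panc1 and 20.5% in MiaPaCa2. CPSF3, the endonuclease that cuts pre-mRNA before the poly(A) tail is added, was the one among them that stood nearer to wild type in Panc1 than in MiaPaCa2. It read 13.6, 13.2 and 12.7 FPKM in Panc1 wild-type and 9.92, 9.53 and 9.90 FPKM in knockout libraries, and 36.1, 32.9 and 33.9 against 23.4, 22.7 and 24.9 FPKM in MiaPaCa2. RNF144A, an E3 ubiquitin ligase, was low in Panc1, at 1.73, 1.84 and 1.81 FPKM in wild-type cells against 0.294, 0.396 and 0.516 FPKM in knockout libraries, 22.4% of wild type. The RNA helicase DDX1 stood at 45.6% and 71.4%, the nucleolar NOL10 at 46.6% and 80.4%, the translational repressor PUM2 at 51.5% and 79.7%, the disulfide isomerase PDIA6 at 66.0% and 84.2%, and UBXN2A, an adaptor of the p97 ATPase, at 56.6% and 78.6%. TMEM18, of the nuclear envelope, stood at 46.3% and 65.1%.

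Nearness to ASAP2 did not order the changes. Over the 43 genes Spearman's rho between relative change and distance from the ASAP2 start was 0.03 in Panc1 and 0.09 in MiaPaCa2, as a description across genes that share the same libraries. In Panc1 the 9 genes that start between 5 and 10 Mb had a median of -0.44, the 6 before 5 Mb -0.68, the 11 between 10 and 15 Mb -0.74, the 5 between 15 and 20 Mb -0.96 and the 12 between 20 and 25 Mb -0.43. In MiaPaCa2 these medians were -0.32, -0.43, -0.30, -0.27 and -0.25 in the same order. MBOAT2, a lysophospholipid acyltransferase 0.20 Mb before ASAP2, read 2.84, 2.97 and 2.91 FPKM in Panc1 wild-type and 1.90, 1.85 and 1.82 FPKM in knockout libraries. IAH1, an esterase-like gene 0.27 Mb after the ASAP2 start, read 22.2, 20.7 and 22.01 FPKM in Panc1 wild-type and 15.5, 14.6 and 16.98 FPKM in knockout libraries.

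The same stretch held 13 further tested genes that are not on the list, ASAP2 aside. In Panc1 12 of them were below wild type without overlap, against 45.3% of all genes, with a median relative change of -0.56. In MiaPaCa2 8 were, against 20.5% of all genes, with a median of -0.23. The edge of the stretch was set from these same changes, so the 13 genes are not a separate check. The exception in Panc1 was CYS1, a ciliary protein, whose mean was 3.22 FPKM in wild-type cells against 3.07 FPKM in knockout cells. The lowest relative change in MiaPaCa2 among the 13 was that of ID2, an inhibitor of helix-loop-helix factors, whose mean was 32.9 FPKM in wild-type against 16.9 FPKM in knockout cells. CYS1 and ID2 were chosen after their values were seen.

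The boundary at 25 Mb was set from the data. Just inside it ITSN2 and NCOA1 had relative changes of -0.69 and -0.36 in Panc1 and of 0.07 and -0.06 in MiaPaCa2. NCOA1 read 3.47, 3.86 and 3.93 FPKM in Panc1 wild-type and 2.55, 2.17 and 2.63 FPKM in knockout libraries. Just outside, PTRHD1, a peptidyl-tRNA hydrolase-like gene, had -0.14 and -0.37, and the kinetochore gene CENPO -0.61 and -0.35. CENPO read 18.6, 18.2 and 19.2 FPKM in Panc1 wild-type and 10.6, 10.4 and 12.2 FPKM in knockout libraries, so the lower values in Panc1 did not stop at the last listed gene. Over the 54 tested genes that start between 25 and 30 Mb the median was 0.12 in Panc1 and -0.26 in MiaPaCa2. Over the 11 genes between 30 and 35 Mb it was -0.12 and -0.36, and over the 25 between 35 and 40 Mb -0.03 and -0.31, so that in MiaPaCa2 the genes beyond the boundary stood about as low as the listed ones (-0.32).

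Over all of chromosome 2 beyond the boundary, the lines differed as well. The 731 tested genes of chromosome 2 beyond 25 Mb, those of the windows above included, had a median relative change of 0.04 in Panc1 and of -0.16 in MiaPaCa2. Among the other chromosomes the lowest median in Panc1 was that of chromosome 7, at -0.23 over 582 genes, and the lowest in MiaPaCa2 that of chromosome 14, at -0.07 over 405 genes.

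**Figure D3:**
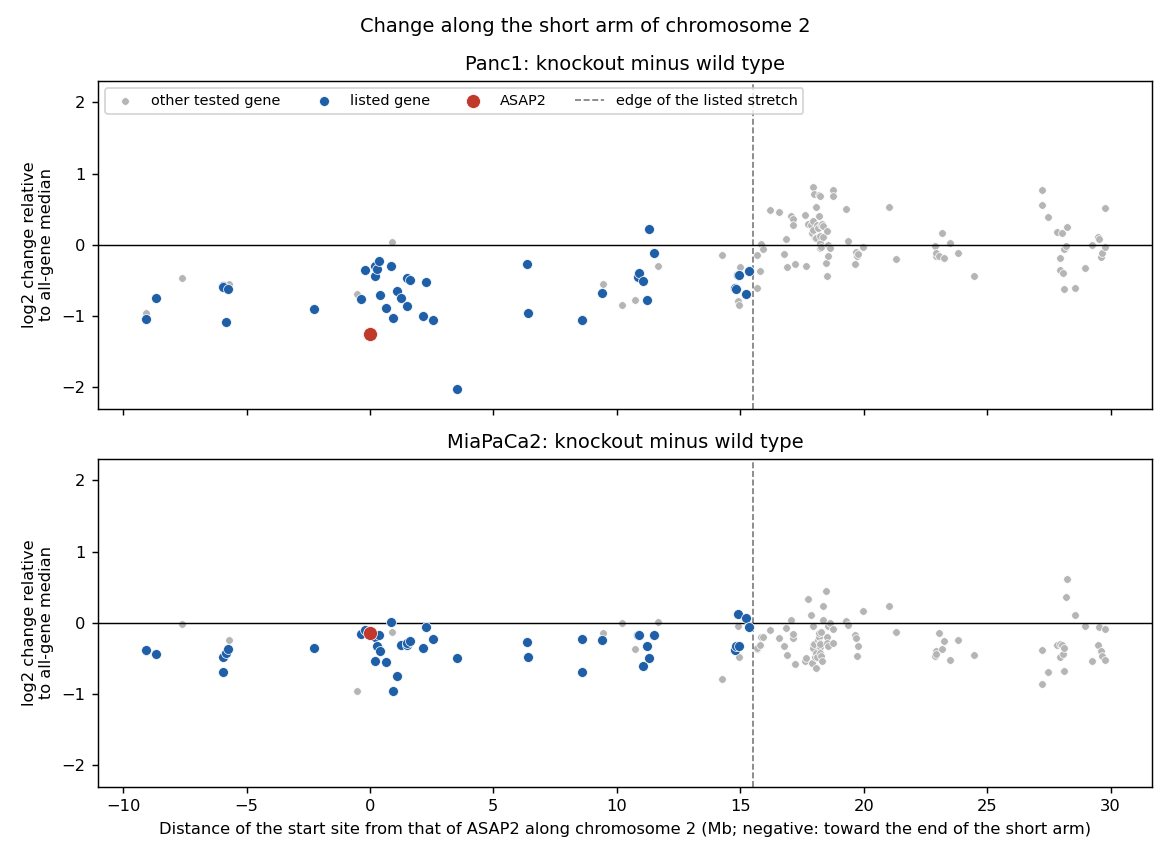
Relative log2 change in knockout cells (y axis) by the distance of each start site from that of ASAP2 along chromosome 2 (x axis, Mb), with the 43 listed genes in blue, ASAP2 in red and other tested genes in grey. In Panc1 nearly all points left of the dashed line lie below 0 and those right of it lie on both sides of 0; in MiaPaCa2 both sides lie mostly below 0.

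Pairs of genes that start back to back from a common stretch of DNA allow a closer look at neighbours. A script found 3 such pairs, with start sites on opposite strands within 2 kb of each other: EIPR1 with TRAPPC12 (1876 bases apart), ITGB1BP1 with CPSF3 (126 bases) and SMC6 with GEN1 (328 bases). EIPR1, which binds the EARP endosomal complex, and TRAPPC12 were alike in Panc1, at 58.6 and 58.9% of wild type, but stood at 70.5 and 60.3% in MiaPaCa2, where their knockout libraries did not overlap in relative change (-0.54 to -0.37 against -0.76 to -0.61). SMC6 and GEN1 stood at 38.99 and 30.1% of wild type in Panc1 (relative log2 changes of -1.06 and -1.05) and at 59.5 and 83.5% in MiaPaCa2. Their annotated bodies overlap by 35089 bases, so reads may be shared. ITGB1BP1 and CPSF3 stood at 67.3 and 74.2% in Panc1 and at 87.9 and 68.9% in MiaPaCa2. The order within this pair was therefore opposite in the lines, as a description without a test.

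DNA at the starts of these pairs is shown, with TRIB2 and RHOB, the lowest and the highest of the 43 in Panc1, beside them. EIPR1 and TRAPPC12 each have a separate window, so they share none of the bases shown. For SMC6 and GEN1 the 27 bases shown are only a part of the 328 between the start sites, the rest being left out. Sequences are from the GRCh37 (hg19) assembly, outside annotated exons, 5′ to 3′ on the strand given. Capitals mark matches, on either strand, to 4 motifs: the CCAAT box, the GC box known for binding SP1 (GGGCGG), the E-box known for binding MYC (CACGTG) and the TATA box (TATAAA). Matches to different motifs may touch or overlap.
EIPR1, chr2:3381602-3381801, reverse strand, the 200 bases before its start: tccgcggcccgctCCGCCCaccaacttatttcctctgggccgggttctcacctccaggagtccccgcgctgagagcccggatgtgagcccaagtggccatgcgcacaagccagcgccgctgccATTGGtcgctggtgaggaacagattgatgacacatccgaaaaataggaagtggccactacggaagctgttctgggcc
TRAPPC12, chr2:3383246-3383445, forward strand, the 200 bases before its start: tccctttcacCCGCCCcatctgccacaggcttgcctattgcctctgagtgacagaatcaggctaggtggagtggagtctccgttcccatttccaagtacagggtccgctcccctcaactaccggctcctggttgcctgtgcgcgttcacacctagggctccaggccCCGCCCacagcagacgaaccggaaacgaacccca
ITGB1BP1-CPSF3, chr2:9563658-9563779, forward strand, 122 bases between the start sites: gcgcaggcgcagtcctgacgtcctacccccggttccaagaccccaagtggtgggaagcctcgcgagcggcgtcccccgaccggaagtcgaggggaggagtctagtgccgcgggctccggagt
SMC6-GEN1, chr2:17935098-17935124, forward strand, 27 bases between the start sites: ctcccttcgggctCCGCCCgcgcctgc
TRIB2, chr2:12856786-12857035, forward strand, the 250 bases before its start: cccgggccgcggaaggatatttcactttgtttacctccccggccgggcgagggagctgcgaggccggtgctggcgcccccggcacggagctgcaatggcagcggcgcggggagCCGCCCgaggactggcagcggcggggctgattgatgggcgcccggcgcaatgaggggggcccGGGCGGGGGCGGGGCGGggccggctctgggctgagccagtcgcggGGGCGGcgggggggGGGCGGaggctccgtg
RHOB, chr2:20646655-20646834, forward strand, the 180 bases before its start: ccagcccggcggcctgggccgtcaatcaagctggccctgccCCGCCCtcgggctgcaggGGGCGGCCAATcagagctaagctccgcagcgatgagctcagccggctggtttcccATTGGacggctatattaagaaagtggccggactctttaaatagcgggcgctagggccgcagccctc

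The TRIB2 window held 6 matches to the GC box and the RHOB window 2, with 2 CCAAT boxes beside them, while the stretch between ITGB1BP1 and CPSF3 held no match to any of the 4. In windows of 250 bases before the start, a GC box was found in 33 of 43 listed genes and in 74.2% of 11234 tested genes. A CCAAT box was found in 14 of 43 against 34.7%, an E-box in 4 of 43 against 9.5% and a TATA box in 0 of 43 against 4.48%. The listed genes were thus near all tested genes in these motif counts. The median GC content of the windows was higher, at 71.6% in the listed genes against 66.8% in the tested genes. The median GC content of their transcripts was 44.4%, against 48.6% in 12303 tested genes with a value, and their median longest transcript 4781 bases against 3695. A correction for transcript GC content and length left the median relative change at -0.61 in Panc1 and -0.34 in MiaPaCa2.

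Genes with the same work elsewhere in the genome give a second background. For 36 of the listed genes a paralog or a partner of the same complex or pathway on another chromosome was named from general knowledge, and 34 pairs could be compared. In Panc1 the listed gene was lower than its partner in 30 of 34 pairs on the relative log2 scale, with median relative changes of -0.60 and -0.04. Of the partners 19 lay below wild type without overlap and 8 above, where all genes gave 45.3% and 24.7%. In MiaPaCa2 the listed gene was lower in 31 of 34 pairs on the relative log2 scale, with medians of -0.32 and 0.05, and 5 partners lay below and 10 above, where all genes gave 20.5% and 23.0%. By percent of wild type the listed gene was lower in 31 of 34 pairs in Panc1 and in 29 of 34 in MiaPaCa2. The MiaPaCa2 counts include genes with little or no RNA there, such as MTAP, the partner of ADI1, at 0.009 FPKM or less in each library, whose log2 change the pseudocount holds near 0. Over the 31 MiaPaCa2 pairs with both genes at a mean of 1 FPKM or more, a subset taken after the values were seen, the listed gene was lower in 28 on either scale. The levels of the listed genes in these pairs belong to the choice of the list, so no test is given.

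Some pairs of a complex or of paralogs came apart, and examples are given first. RRM1, the large subunit that works with RRM2, stood at 64.4% of wild type in Panc1 and 97.2% in MiaPaCa2, against 45.1% and 52.1% for RRM2. SMC5 stood at 60.3% and 108.8%, against 38.99% and 59.5% for SMC6. For RTCB, the tRNA ligase that works with DDX1, the values were 96.4% and 100.1%, against 45.6% and 71.4%. The paralog YWHAB stood at 109.1% in Panc1, where YWHAQ stood at 57.2%. TRIB3, a stress-induced paralog of TRIB2, stood at 377% in Panc1 and 187% in MiaPaCa2, above wild type without overlap in both. In Panc1 the partner had the lower relative log2 change in 4 pairs, ADAM10 with ADAM17, RINT1 with NBAS, ATAD2 with ATAD2B and KRIT1 with ITGB1BP1. In percent of wild type the order of ATAD2B (40.8%) and ATAD2 (55.3%) was the other way. RINT1 and KRIT1 lie on chromosome 7, whose median was also low there. In MiaPaCa2 the partner had the lower relative log2 change for AMD1 with ODC1, MBOAT1 with MBOAT2 and PCGF6 with E2F6. Other pairs stayed closer: CPSF2 was lower without overlap in both lines, at 84.6% and 75.1% of wild type, against 74.2% and 68.9% for CPSF3.

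**Figure D4:**
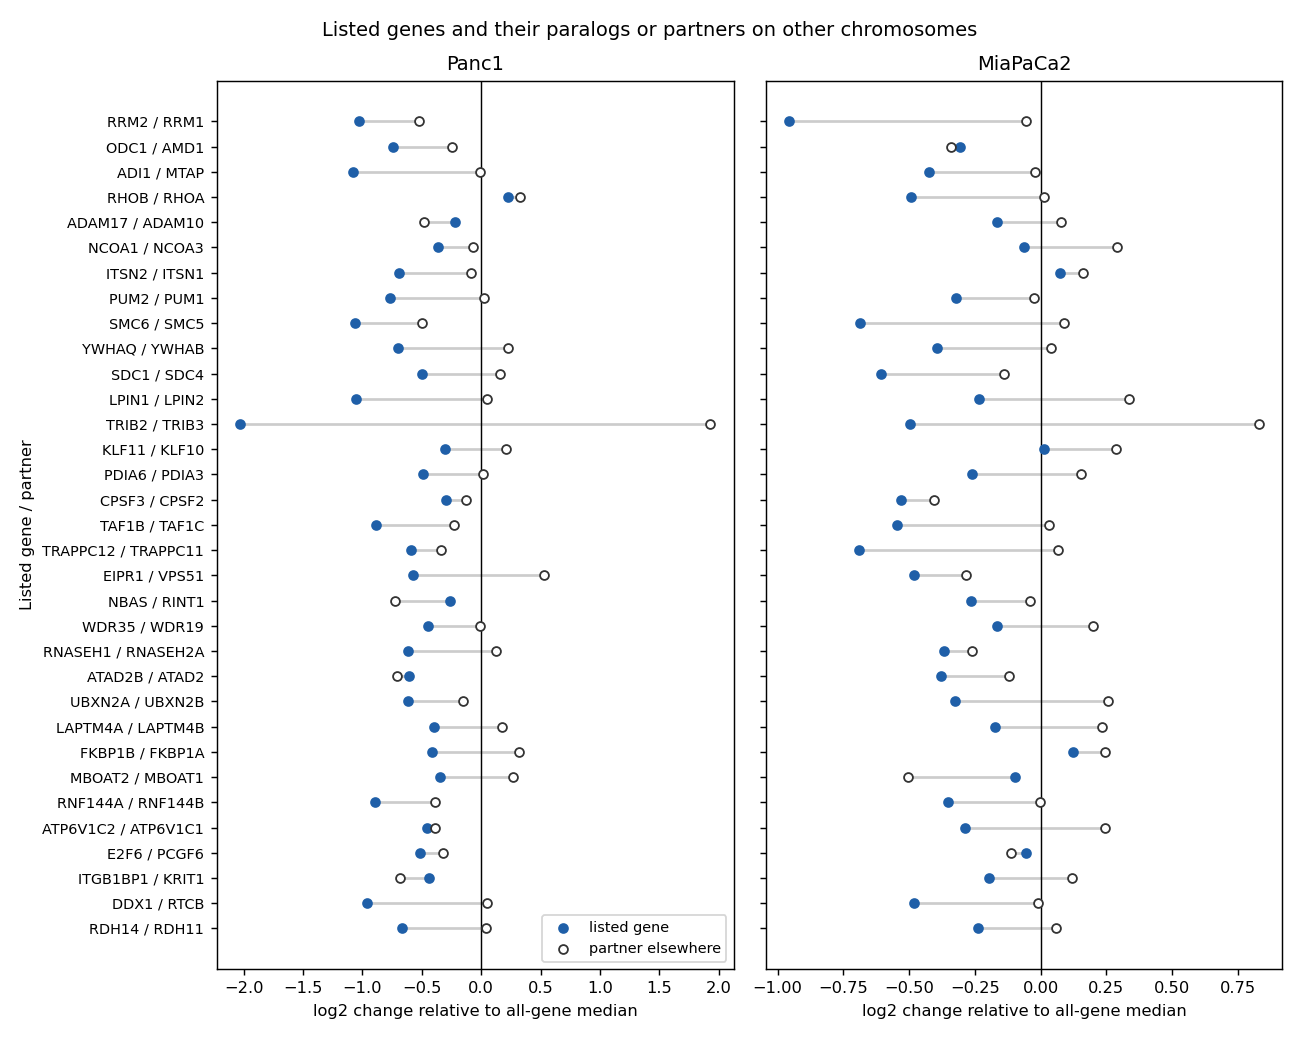
Relative log2 change in knockout cells (x axis; the panels have different ranges) of 33 listed genes (filled) and of their paralogs or partners on other chromosomes (open), 1 pair a row. The filled point lies left of the open one in 29 pairs in Panc1 and 30 in MiaPaCa2.

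The changes of the listed genes in the lines, which share no libraries, were weakly related: across the 43 genes Pearson's r was 0.33 and Spearman's rho 0.39, against 0.06 and 0.06 across all 13340 genes. The genes were listed for their changes in both lines, so the all-gene values are not a like background. Members are also neighbours in one stretch and not independent, so these values are descriptions. The relation of the change to the mean level differed, with a Spearman's rho of -0.04 in Panc1 and -0.37 in MiaPaCa2.

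The difference between the wild-type lines was not the contrast that chose the genes, although the wild-type values were the denominators of the ratios that did. It was tested with limma over all 13340 genes and Benjamini-Hochberg adjustment (differences in the log2(FPKM + 1), Panc1 minus MiaPaCa2). The test uses the same wild-type libraries as the knockout changes above. Of the 43 genes 30 were lower in Panc1 and 8 higher, where 40.9% of all genes were lower and 41.8% higher. The total of 38 called is read against 82.7% of all genes. At least 2-fold lower were 4 (10.2% of all genes) and at least 2-fold higher 1 (14.7%). The median difference of the 43 was -0.38 and that of all genes 0.00. With libraries scaled to the same sum 26 were lower and 10 higher.

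ADI1 was the most different downward, at 34.8 ± 0.99 FPKM (SD, n = 3) in Panc1 and 142 ± 1.17 FPKM in MiaPaCa2 (difference -1.999, SE 0.06, limma adjusted p = 3.95e-12). CPSF3 followed with 13.2 ± 0.444 against 34.3 ± 1.67 FPKM (-1.32, SE 0.05, limma adjusted p = 3.20e-11). HS1BP3 had 5.96 ± 0.495 against 13.8 ± 2.09 FPKM (-1.08, limma adjusted p = 1.37e-07) and TRIB2 10.7 ± 0.826 against 23.4 ± 1.42 FPKM (-1.05, limma adjusted p = 3.35e-08). The 3 libraries of each line did not overlap for any of these.

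The largest difference upward was that of FKBP1B, at 9.29 ± 0.375 FPKM in Panc1 and 0.416 ± 0.0915 FPKM in MiaPaCa2 (2.86, SE 0.08, limma adjusted p = 2.98e-12). FKBP1B passed the filter through Panc1 alone, the line where it is high, so this difference had to arise and supports nothing. Over the 42 genes at a mean of 1 FPKM or more in both lines, 30 were lower and 7 higher in Panc1, with 4 and 0 of them at least 2-fold. TAF1B had 7.74 ± 0.0895 against 3.85 ± 0.256 FPKM (0.85, limma adjusted p = 2.03e-07), TMEM18 4.67 ± 0.267 against 2.71 ± 0.128 FPKM (0.61, limma adjusted p = 2.03e-05) and ODC1 165 ± 5.33 against 120.3 ± 10.5 FPKM (0.45, limma adjusted p = 5.63e-04). TMEM18 read 4.46, 4.58 and 4.97 FPKM in Panc1 and 2.56, 2.78 and 2.78 FPKM in MiaPaCa2 wild-type libraries, so its groups were apart.

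For 5 genes no difference between the wild-type lines was found, among them HPCAL1 (0.01, 95% interval -0.07 to 0.10), ITSN2 (0.01, -0.15 to 0.17), NCOA1 (-0.13, -0.27 to 0.02), and SMC6 (0.18, -0.17 to 0.53). On the deposited scale HPCAL1 stood at nearly one level in the wild-type lines, 141 ± 2.63 and 139 ± 2.98 FPKM, and in the knockout cells, 83.2 ± 2.96 and 83.3 ± 2.44 FPKM. These calls depend on the scaling. Over the scalings and pseudocounts run, the limma adjusted p reached as low as 0.0007 for NCOA1 (difference to -0.31), 0.0233 for HPCAL1 and 0.0496 for ITSN2, which were then called. It reached as high as 0.148 for SDC1, 0.168 for RHOB, 0.102 for E2F6, 0.0982 for MBOAT2 and 0.0891 for UBXN2A, which were then not called.

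**Figure D5:**
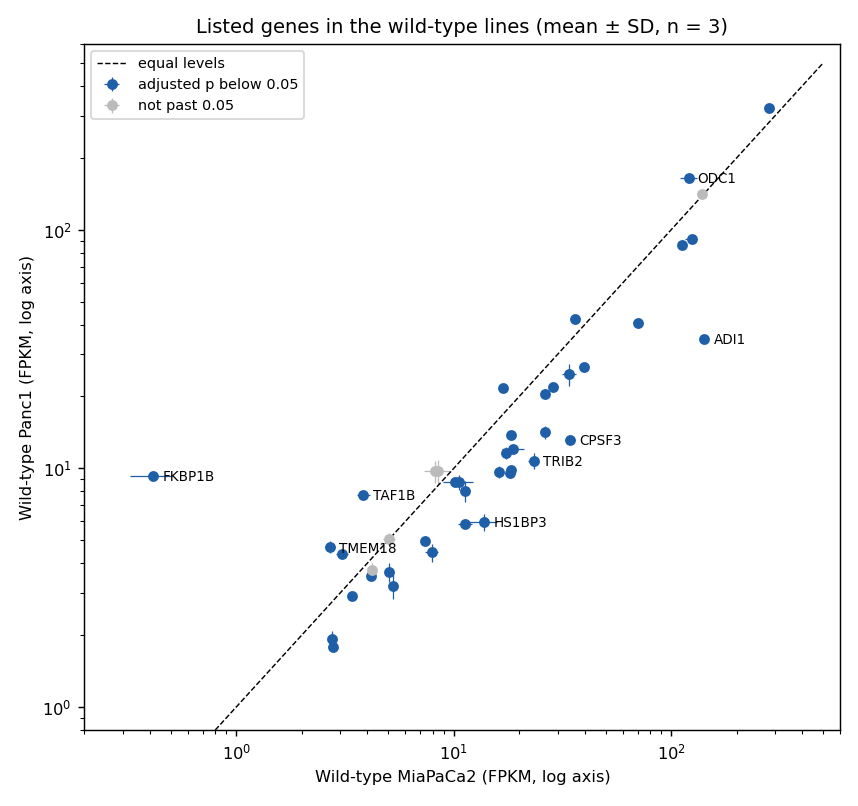
Mean ± SD (n = 3) of the 43 tested genes in wild-type MiaPaCa2 (x axis) and wild-type Panc1 (y axis), both in FPKM on log axes, with the dashed line at equal levels. Blue points passed limma at an adjusted p below 0.05: 30 lie toward MiaPaCa2 and 8 toward Panc1, and FKBP1B and ADI1 lie farthest from the line.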

How the data were processed

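RNA-seq of 12 libraries was analysed, 3 in each of 4 groups, grouped by their labels. The authors deposited FPKM per gene symbol. TopHat2 2.0.14, STAR 2.5.2a and hg19 are named in the submitters' processing notes, without roles; the sources used here give no library preparation, strandedness or counter. Counts were not used here, so read depth is unknown and the spread over libraries is the error. Values were analysed as log2(FPKM + 1). A gene was tested if its mean over the 6 libraries of a line reached 1 FPKM. A relative change is the knockout minus wild-type change less the all-gene median of the line. Wild-type lines were compared with limma 3.58.1 (R 4.3.3; 4 group means over 12 libraries, trend, adjusted p below 0.05), which was tested on simulated data. The members and lists were chosen with earlier results of these data known. Genes given in full were ASAP2, the 4 nearest on each side, the 5 lowest and 3 highest per line, the 4 largest wild-type differences each way and the 2 on each side of the 25 Mb boundary; others illustrate their group. Sequences and annotation were of GRCh37 (GENCODE lifted to that build). Alternatives were other pseudocounts, filters, scalings, a GC and length correction, a replicate block, limma settings and leaving out each library. A listed gene is not reported here by name; the counts and medians include it.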

Additional observations from a re-analysis of the deposited data

How the results depend on the processing

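The median relative change of the listed genes stayed below 0 in both lines under every alternative run. In Panc1 it was -0.61, and it moved by more than the spread between knockout libraries (SD 0.0116) to -0.68 with a pseudocount of 0.1, -0.69 with no filter (46 genes), -0.63 with a filter of 5 FPKM (34 genes), -0.67 with libraries scaled to the same sum and -0.57 with quantile normalization. Leaving out each library in turn gave -0.64 to -0.60. In MiaPaCa2 it was -0.32, with -0.35 to -0.31 when a library was left out and -0.34 to -0.29 otherwise. The 38 genes called between the wild-type lines became 36 to 39 when a library was left out and 30 (of 34 genes, filter of 5 FPKM) to 40 (array weights) otherwise. With the replicate number as a block the genes called were 38. The block does not enter the median changes, so their unchanged values of -0.61 and -0.32 are no check. The numbers did not pair the libraries: same-numbered deviations correlated at 0.02 to 0.08 in Panc1 and at -0.17 to -0.002 in MiaPaCa2. Depth could not be weighed, since the files hold no counts.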
